A study of Mus musculus with 4 samples.

Results

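Metallothioneins are small cysteine-rich proteins that hold zinc and copper, and together with the zinc transporters they set how much zinc a cell has free. The 6 genes described here were chosen by symbol from the 31253 genes of the feature tables: Mt1, Mt2 and Mt3, which encode metallothioneins, Slc30a1, which encodes the zinc exporter ZnT1, Slc39a14, which encodes the zinc, iron and manganese importer ZIP14, and Mtf1, which encodes the zinc-sensing transcription factor of this system. They were measured by single-cell RNA sequencing in brain cells of mice with an ischemic stroke, 3 days after transient occlusion of the middle cerebral artery (tMCAO), in the hemisphere on the side of the occlusion. The 2 Ms4a3 cKO libraries came from Htr2b ERCre; Ms4a3-Cre mice, and the 2 Flox control libraries from Htr2b flox/flox littermates. All mice were adult, male and/or female, and on the labelled strain C57B6. All had tamoxifen and a 3-day washout before the surgery, so the control group carried the floxed allele and the drug as well. Ms4a3-Cre is active in precursors of granulocytes and monocytes, and Htr2b encodes a serotonin receptor. Cells were captured without enrichment after papain and DNase digestion and red cell lysis, on microwell beads that give each captured transcript a unique molecular identifier (UMI). The labels do not say whether the 2 libraries of a genotype came from separate animals, nor whether animals were pooled, so a p-value here measures the spread between these libraries.

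Cells keep free zinc low by binding it to metallothioneins, by moving it out through ZnT1 and by limiting its entry through ZIP transporters. When zinc rises, Mtf1 binds metal response elements in promoters and raises transcription of Mt1, Mt2 and Slc30a1. Mt1 and Mt2 are also known targets of glucocorticoids and of the cytokine pathway that signals through Stat3, which also acts on Slc39a14 in liver, and both metallothioneins are known to be induced in astrocytes after brain injury. Mt3 is a brain form found in astrocytes and neurons and is not known to follow metals as Mt1 and Mt2 do.

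In the GENCODE annotation of build GRCm38 (mm10), the metallothionein genes lie on the plus strand of chromosome 8, with Mt3 at 94152607 to 94154146, Mt2 at 94172664 to 94173568 and Mt1 at 94179082 to 94180327. The gap from the end of Mt3 to the start of Mt2 is 18517 bases and that from the end of Mt2 to the start of Mt1 is 5513 bases. Slc30a1 lies on chromosome 1 at 191906767 to 191913247, Mtf1 on chromosome 4 at 124802104 to 124849800 and Slc39a14 on the minus strand of chromosome 14 at 70303469 to 70351425. The longest run of bases shared by a Mt1 and a Mt2 transcript was 20 bases, as it was for Mt2 and Mt3, and it was 16 bases for Mt1 and Mt3. Mt2, Slc30a1 and Mtf1 overlap other annotated genes, antisense Gm45774 at Mt2, 1700034H15Rik at Slc30a1 and 1110065P20Rik at Mtf1. Whether reads were counted by strand is not given in the sources used here, so their reads and those of these partners cannot be told apart.

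The promoters of the metal-responsive genes are shown because Mt1, Mt2 and Slc30a1 share a known regulator and gave unlike differences between genotypes, and Mt3 is shown as the metallothionein not known to follow metals. Each is 300 bases of the RefSeq table of build GRCm38.p6, 250 bases before to 50 bases after the start site of RefSeq, read 5′ to 3′ on the plus strand, with matches to the metal response element in capitals. The element was searched as TGCGCNC or TGCACNC on both strands, so a match on the minus strand reads as its reverse complement.
Mt1, chr8:94178839-94179138
Mt1: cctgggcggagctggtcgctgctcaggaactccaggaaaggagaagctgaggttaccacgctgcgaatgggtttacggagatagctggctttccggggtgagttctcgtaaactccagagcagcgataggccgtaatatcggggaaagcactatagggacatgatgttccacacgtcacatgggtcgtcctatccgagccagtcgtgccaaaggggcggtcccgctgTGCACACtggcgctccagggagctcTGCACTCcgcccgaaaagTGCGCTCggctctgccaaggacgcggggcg
Mt2, chr8:94172368-94172667
Mt2: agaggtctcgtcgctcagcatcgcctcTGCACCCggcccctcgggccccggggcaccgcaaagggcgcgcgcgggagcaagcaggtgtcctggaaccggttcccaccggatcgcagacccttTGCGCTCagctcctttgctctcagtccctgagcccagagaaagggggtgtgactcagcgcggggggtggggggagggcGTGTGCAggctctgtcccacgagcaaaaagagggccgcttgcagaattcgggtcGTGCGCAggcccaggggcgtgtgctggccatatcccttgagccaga
Mt3, chr8:94152357-94152656
Mt3: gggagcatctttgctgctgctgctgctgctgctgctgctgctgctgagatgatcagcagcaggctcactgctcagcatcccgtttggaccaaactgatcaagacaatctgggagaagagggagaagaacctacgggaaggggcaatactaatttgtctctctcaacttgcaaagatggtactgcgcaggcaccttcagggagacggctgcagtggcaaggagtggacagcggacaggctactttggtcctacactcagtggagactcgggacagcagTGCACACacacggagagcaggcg
Slc30a1, chr1:191906531-191906830
Slc30a1: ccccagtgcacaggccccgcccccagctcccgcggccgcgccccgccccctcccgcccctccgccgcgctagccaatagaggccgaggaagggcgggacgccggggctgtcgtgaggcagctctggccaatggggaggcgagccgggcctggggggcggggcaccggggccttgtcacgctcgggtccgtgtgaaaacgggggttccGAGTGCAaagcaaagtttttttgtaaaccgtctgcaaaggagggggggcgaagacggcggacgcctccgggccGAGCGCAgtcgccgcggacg

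The Mt2 window held 4 matches, a number reached by 0.517% of the 32851 promoters of the table. The Mt1 window held 3, reached by 1.97%, and the Slc30a1 window held 2, reached by 7.11%. The single match of Mt3 sets it apart from few others, since 25.7% of all promoters had at least 1 match. The Mtf1 window, at chr4:124802299-124802598, held 0. The glucocorticoid response element, searched by its palindromic consensus on both strands, occurred in 0.00913% of promoters and in none of the 5 windows. The Stat element TTCNNNGAA occurred in 8.30% of promoters and in none of the 5. The antioxidant response element TGACNNNGC occurred in 12.4% of promoters and had 1 match each in Mt2 and Slc30a1. A match is a stretch of letters and not a shown binding site, and the windows end 250 bases upstream.

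**Figure D1:**
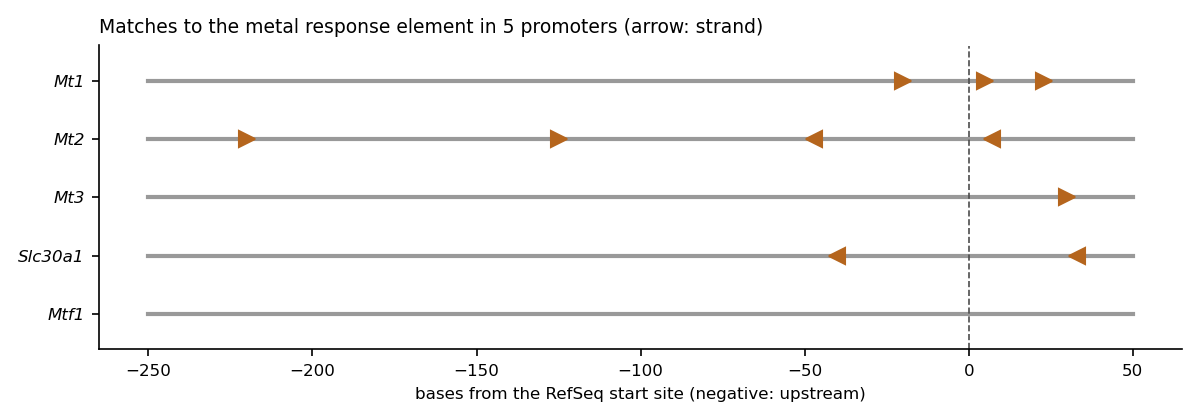
Matches to the metal response element in the promoters of Mt1, Mt2, Mt3, Slc30a1 and Mtf1, placed by their distance in bases from the RefSeq start site, with arrows for the strand. Mt2 has 4 matches spread from 223 bases upstream to just past the start, Mt1 has 3 within 23 bases of it, and Mtf1 has 0.

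The 4 libraries gave 59625 cells after filtering, 13215 to 16267 per library, with median depths per cell of 3766.5 and 4004 UMIs in the Ms4a3 cKO libraries and 6599 and 5523 in the Flox control libraries. Cells fell into 35 clusters, of which 31 were named by marker genes and grouped into 16 classes, and 4 clusters with 3945 cells had no name. The labelled tissue was met by the markers of microglia, astrocytes, oligodendrocytes and neurons. Tests used the 11 classes with at least 50 cells in every library. Levels are given as CPM, the count of a gene scaled to 1000000 UMIs of a class in a library. Htr2b, the targeted gene, had 10.9 and 27.04 CPM in monocyte-macrophages of the Ms4a3 cKO libraries, against 85.5 and 131 CPM in those of the Flox control libraries. In neutrophils it had 2.05 and 7.23 CPM in the Ms4a3 cKO libraries and 0 and 28.4 CPM in the Flox control libraries, from at most 22 UMIs. Flox control library 1 stood apart. It held 145 endothelial cells, against 882 in Flox control library 2, and most cells of microglial clusters 8 and 12 and of monocyte-macrophage cluster 4, so most of the Mt1 and Mt2 differences between genotypes are also given without it. Cell barcodes found in more than 1 library numbered 15.

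Mt1 was highest in ependymal cells and astrocytes and lowest in neurons. Over the 4 libraries it averaged 1013 ± 609 CPM in ependymal cells, 1007 ± 653 in astrocytes and 354 ± 310 in oligodendrocytes, against 19.1 ± 15.7 in neurons and neuroblasts (SD, n = 4 libraries). The large SDs hold the difference between genotypes described below, and every class overlapped the next in this order. Mt2 followed a like order, with 1108 ± 714 CPM in astrocytes, 864 ± 471 in ependymal cells and 366 ± 387 in oligodendrocyte precursors, and its lowest mean was in T or NK cells, at 16.4 ± 25.5 CPM. In edgeR's quasi-likelihood fit over the 11 classes with the library as a block, Mt1 was higher in astrocytes than in microglia by a log2 fold change of 2.68 (SE 0.365, edgeR's adjusted p = 5.78e-08), and Mt2 by 3.98 (SE 0.520, edgeR's adjusted p = 2.55e-08). Adjusted p-values are by Benjamini-Hochberg over all genes tested, and below 0.05 a gene is called. In that comparison 59.4% of all 13614 genes tested were called, and 4 of the 6 genes were, a share near the background. Against oligodendrocytes, where 52.3% of genes and 4 of the 6 were called, astrocytes were higher by 1.52 for Mt1 and 2.50 for Mt2. Against endothelial cells, with 52.8% of genes and all 6 called, they were higher by 2.71 for Mt1 and 2.57 for Mt2. The Mtf1 call of that comparison was lost without Ms4a3 cKO library 1 (adjusted p = 0.107) or 2 (adjusted p = 0.140).

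Mt3 was highest in ependymal cells, astrocytes and the choroid plexus. It averaged 212 ± 34.7 CPM in ependymal cells, 142 ± 53.2 in astrocytes, 67.6 ± 12.4 in choroid plexus and 49.1 ± 36.6 in oligodendrocyte precursors, and 5.53 ± 5.31 in oligodendrocytes (SD, n = 4 libraries). Every other class averaged below these values, and T or NK cells had 0 UMIs in all 4 libraries. Its level was 9.40 log2 units higher in astrocytes than in microglia (SE 0.537, edgeR's adjusted p = 1.38e-17). Choroid plexus did not differ from astrocytes past the threshold for Mt3 (log2 fold change -0.91, SE 0.391, edgeR's adjusted p = 0.0630), whereas Mt1 and Mt2 were lower there by log2 fold changes of -3.57 and -5.41. In that comparison 38.5% of genes and 4 of the 6 were called, and 2 of those calls did not last in every fit that left out a library: that of Slc30a1 (adjusted p = 0.0240, up to 0.133) and that of Mtf1 (adjusted p = 0.0185, up to 0.156 without Ms4a3 cKO library 2). Mt4, the metallothionein of squamous epithelia, had 7 UMIs in the whole set.

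Slc30a1 was highest in endothelial cells, then in pericytes and smooth muscle. It averaged 720 ± 55.4 CPM in endothelial cells, 289 ± 86.5 in pericytes and smooth muscle, 119 ± 33.5 in ependymal cells and 76.5 ± 9.40 in astrocytes, against 37.9 ± 0.917 in microglia (SD, n = 4 libraries). The ranges of endothelial cells and of pericytes and smooth muscle did not meet those of the next class, and those of the other neighbouring classes did. Endothelial cells exceeded microglia by a log2 fold change of 4.17 (SE 0.232, edgeR's adjusted p = 9.63e-18), in a comparison where 55.4% of genes and 3 of the 6 were called. The Mt2 call there (log2 fold change 1.40, edgeR's adjusted p = 0.0156) was lost without Ms4a3 cKO library 1 (adjusted p = 0.336) or 2 (adjusted p = 0.0889). Within the endothelial class, cluster 3 had 985 and 851 CPM in the Ms4a3 cKO libraries and 794 and 914 in the Flox control libraries. Endothelial cluster 14 had 400 and 361 CPM in the Ms4a3 cKO libraries and 447 CPM in Flox control library 2, with too few cells for a value in library 1. Of the mural clusters, number 27 had 393, 340 and 376 CPM and number 22 had 89.1, 54.9 and 68.1 CPM in Ms4a3 cKO libraries 1 and 2 and Flox control library 2.

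Slc39a14 had the reverse place in endothelial cells, where its level was lowest. It averaged 202 ± 76.3 CPM in fibroblasts, 130 ± 93.3 in oligodendrocytes, 106 ± 69.2 in oligodendrocyte precursors and 87.4 ± 43.4 in astrocytes, against 7.86 ± 5.26 in endothelial cells (SD, n = 4 libraries). The endothelial level lay 2.97 log2 units under the microglial one (log2 fold change -2.97, SE 0.413, edgeR's adjusted p = 9.79e-08). Monocyte-macrophages were lower than microglia for Slc39a14 by a log2 fold change of -1.14 (SE 0.340, edgeR's adjusted p = 0.00848) and for Mt2 by -2.13 (SE 0.490, edgeR's adjusted p = 0.000716), where 31.3% of genes and 2 of the 6 were called. Border macrophages were also lower than microglia for Slc39a14 (log2 fold change -1.18, SE 0.365, edgeR's adjusted p = 0.0212), the only 1 of the 6 called where 16.1% of genes were. That call was lost without Ms4a3 cKO library 1 (adjusted p = 0.117) or Flox control library 2 (adjusted p = 0.140), and the monocyte-macrophage one without Flox control library 2 (adjusted p = 0.0551).

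Mtf1 had the flattest profile. It averaged 77.5 ± 4.28 CPM in oligodendrocytes, 53.9 ± 8.94 in ependymal cells and 52.8 ± 2.42 in neutrophils, and its lowest mean was 20.9 ± 4.47 CPM, in T or NK cells (SD, n = 4 libraries). The oligodendrocyte range, 71.7 to 81.5 CPM, lay above those of the other classes except oligodendrocyte cluster 10, which reached 73.4 CPM in Ms4a3 cKO library 1. Astrocytes were lower than oligodendrocytes by a log2 fold change of -1.91 (SE 0.206, edgeR's adjusted p = 6.42e-10). Neutrophils were higher than monocyte-macrophages by 0.70 (SE 0.198, edgeR's adjusted p = 0.00349) and lower for Slc30a1 by a log2 fold change of -0.79 (SE 0.244, edgeR's adjusted p = 0.00694), where 52% of genes and 2 of the 6 were called. The Mtf1 call was lost without Ms4a3 cKO library 1 (adjusted p = 0.0975) or Flox control library 1 (adjusted p = 0.0605).

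**Figure D2:**
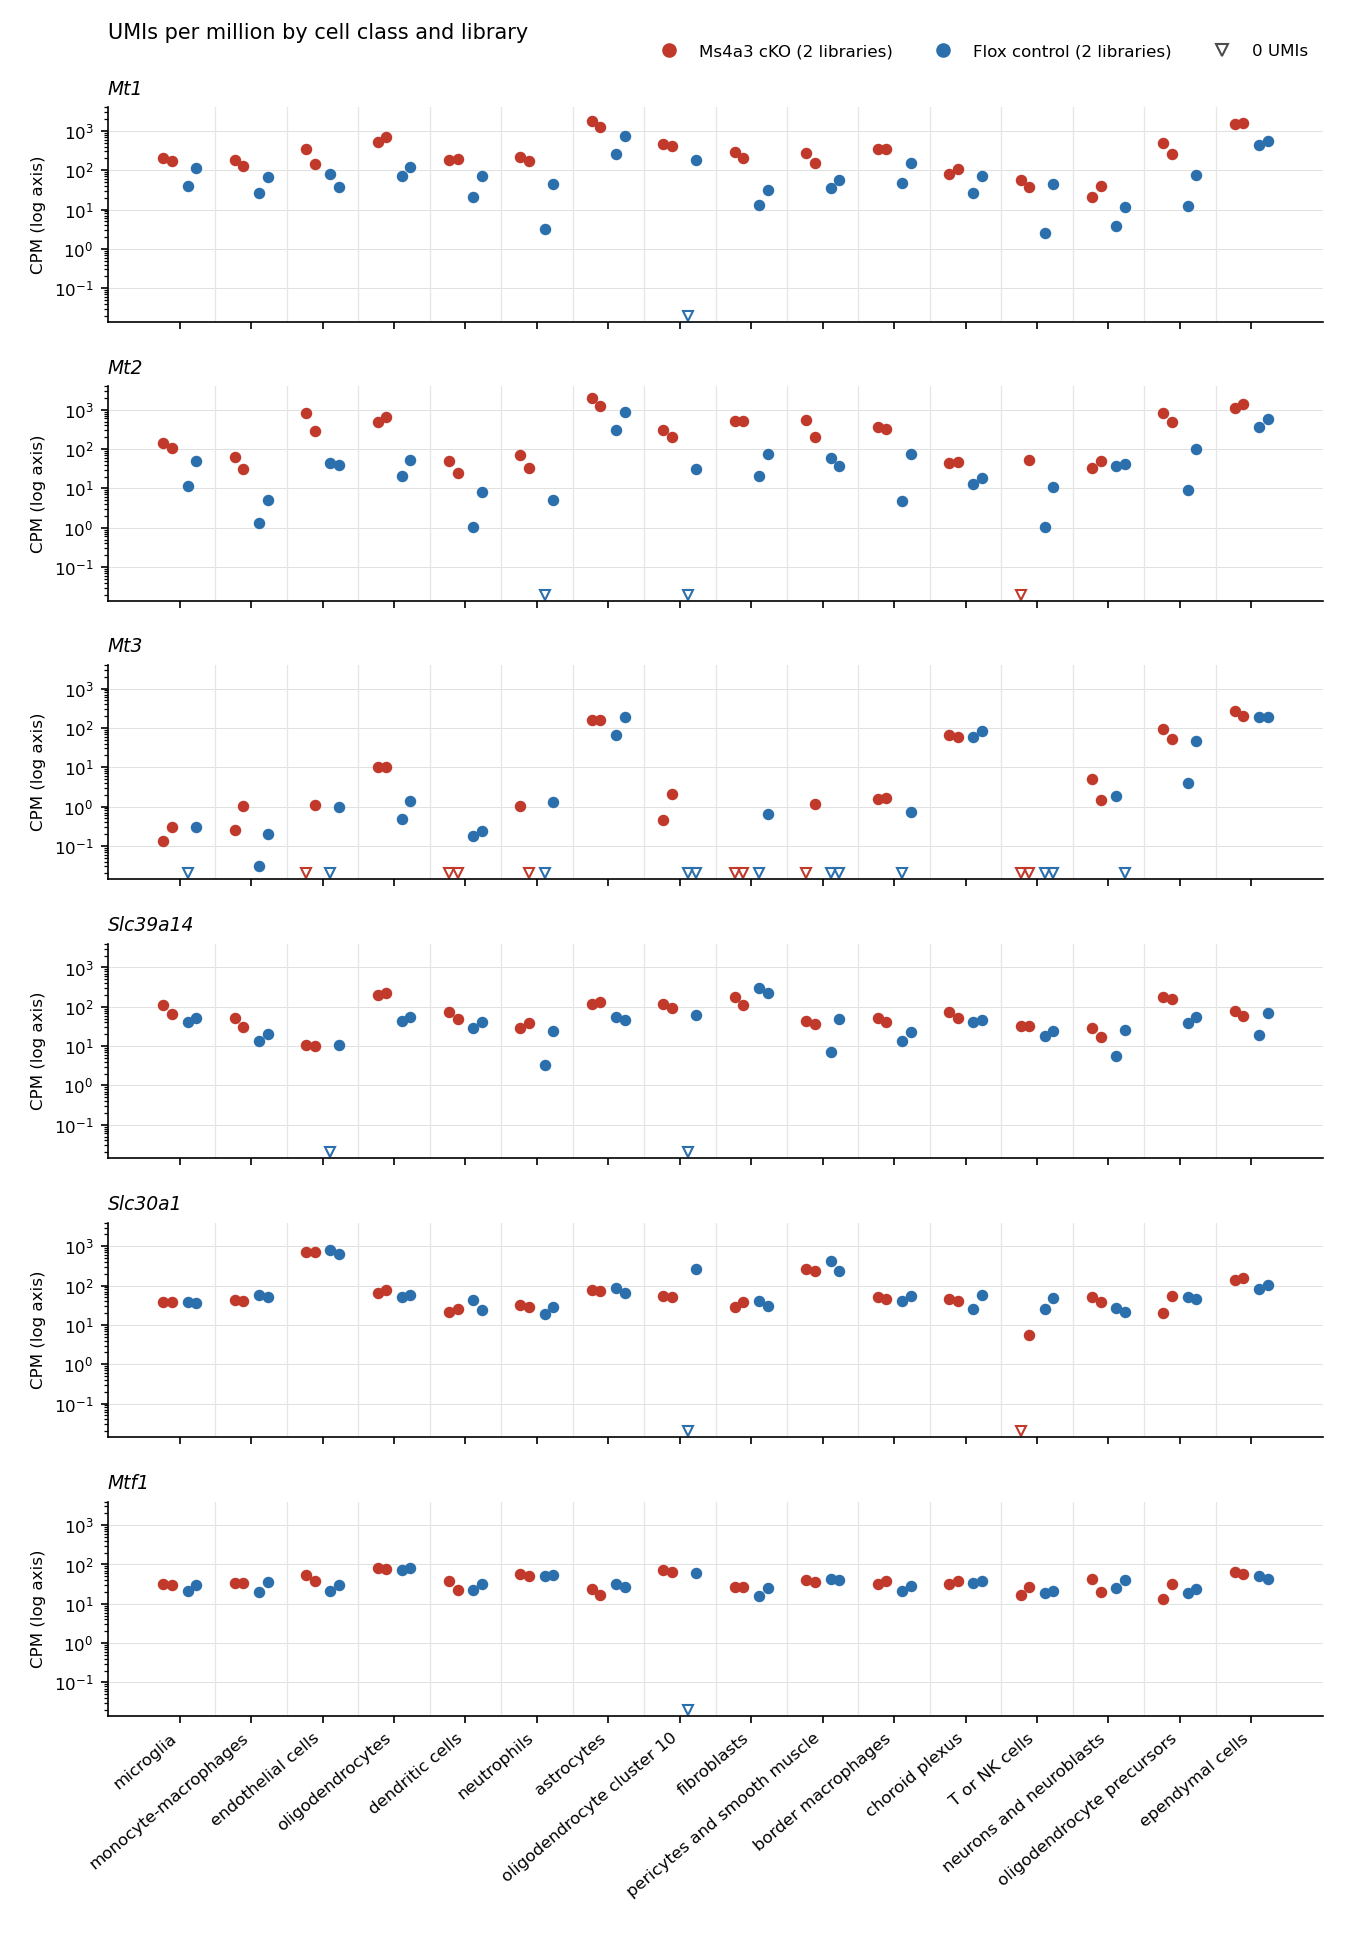
Level of each gene in CPM (log axis) by cell class, a point for each library, with open triangles for 0 UMIs. Slc30a1 peaks in endothelial cells at 656 to 791 CPM in the 4 libraries, Mt3 is low outside astrocytes, ependymal cells, choroid plexus and oligodendrocyte precursors, and the Mt1 and Mt2 points of the Ms4a3 cKO libraries lie above those of the Flox control libraries in most classes.

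Between genotypes, Mt1 and Mt2 were higher in both Ms4a3 cKO libraries than in both Flox control libraries in almost every class, Slc39a14 in most, and Slc30a1, Mtf1 and Mt3 in few. Over the 11 classes with at least 50 cells in every library, both Ms4a3 cKO libraries lay above both Flox control libraries in 11 classes for Mt1, 10 for Mt2, 8 for Slc39a14, 4 for Mtf1, 3 for Mt3 and 3 for Slc30a1. The share of all genes tested with this order ran from 16% in choroid plexus to 35% in oligodendrocytes. Over only the classes in which a gene was tested, Mt1 had it in 10 of 10 and Mt3 in 1 of 4. None of the differences of the 6 genes was called by edgeR's quasi-likelihood test with 2 libraries per genotype. Of 58 pairs of gene and class, 0 passed after adjustment over all genes, while DESeq2 called 18 of the 58. The share of all genes that DESeq2 called ran from 0% in neurons and neuroblasts to 6.04% in oligodendrocytes. The exact permutation test of a single gene cannot go below p = 0.333 with 2 libraries against 2. Class by class, the edgeR background was also low: it called 0% of genes in dendritic cells, endothelial cells, fibroblasts, microglia, monocyte-macrophages, neurons, neutrophils and oligodendrocytes, 0.0958% in astrocytes, 0.532% in border macrophages and 0.023% in choroid plexus. At an unadjusted p under 0.05 edgeR gave 9 of 10 classes for Mt1, 10 of 11 for Mt2, 6 of 11 for Slc39a14, 1 of 4 for Mt3 and 1 of 11 each for Slc30a1 and Mtf1. At that unadjusted threshold edgeR passed 15.9% of all genes in astrocytes, 11.8% in border macrophages, 5.04% in choroid plexus, 8.09% in dendritic cells, 6.8% in endothelial cells, 11.5% in fibroblasts, 10.8% in microglia, 12.9% in monocyte-macrophages, 6.42% in neurons, 6.38% in neutrophils and 19.5% in oligodendrocytes.

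The number of calls turned on which library was left out. Over the 11 classes and all genes edgeR called 2.62% of tests without Flox control library 1, 14.6% without Flox control library 2, 0.158% without Ms4a3 cKO library 1 and 0.264% without Ms4a3 cKO library 2. Of the pairs of gene and class for the 6 genes it called 13 of 60, 26 of 60, 2 of 60 and 4 of 57 in these fits. Log2 fold changes from such fits are given beside the results. Markers of another cell type moved with the genotype in several classes: the 8 choroid plexus markers summed to 100 and 127 CPM in microglia of the Ms4a3 cKO libraries, against 13.6 and 68.4 CPM in those of the Flox control libraries, and were likewise above both controls in monocyte-macrophages, border macrophages, dendritic cells, fibroblasts, endothelial cells and neurons. Their part in the results was not tested.

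Mt1 was abundant in astrocytes, with a gap between the genotypes. It had 1755 and 1288 CPM in astrocytes of the Ms4a3 cKO libraries, against 257 and 728 CPM in those of the Flox control libraries. Both Ms4a3 cKO values lay above both control values, and the control libraries themselves differed widely, library 1 being the lowest. The log2 fold change was 1.65 (SE 0.438, edgeR's adjusted p = 0.165). It was 1.14 without Flox control library 1 and 2.53 without Flox control library 2. Without Ms4a3 cKO library 1 it was 1.42, and without Ms4a3 cKO library 2 it was 1.87. In astrocytes 3 of the 6 genes had both Ms4a3 cKO libraries on top, beside 23.1% of all genes tested, and DESeq2 called 3 of them (Mt1, Mt2 and Slc39a14) beside 0.987% of genes. Both astrocyte clusters had this order: cluster 16 had 2329 and 1831 CPM of Mt1 in the Ms4a3 cKO libraries and 201 and 757 in the Flox control libraries, and cluster 23 had 969 and 862 in the Ms4a3 cKO libraries and 313 and 597 in the Flox control libraries. Markers of microglia in this class summed to 4443 and 5574 CPM in the Ms4a3 cKO libraries and 3063 and 3509 CPM in the Flox control libraries, with none of the 12 at 0 in all, and their part in the result was not tested.

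In oligodendrocytes Mt1 and Mt2 had their smallest adjusted p-values. Mt1 had 512 and 713 CPM in the Ms4a3 cKO libraries and 71.9 and 118 CPM in the Flox control libraries, with means of 612 ± 142 and 95.1 ± 32.9 CPM (SD, n = 2 each). Mt2 had 483 and 650 CPM in the Ms4a3 cKO libraries, against 20.4 and 53.6 CPM in the Flox control libraries. The groups were far apart for both genes. The log2 fold changes were 2.55 for Mt1 (SE 0.314) and 3.80 for Mt2 (SE 0.442), each at an adjusted p from edgeR of 0.0526. Of the 6 genes, 5 had both Ms4a3 cKO libraries on top in this class, beside 35% of all genes, and DESeq2 called 4 (Mt1, Mt2, Mt3 and Slc39a14) beside 6.04%. Oligodendrocyte cluster 9, which all 4 libraries shared, gave calls by itself for Mt1 (log2 fold change 2.67, edgeR's adjusted p = 0.00778), Mt2 (3.74, adjusted p = 0.0207) and Slc39a14 (2.25, adjusted p = 0.00559), beside 1.14% of all genes. Cluster 13, also with cells of all 4 libraries, had log2 fold changes of 2.72 for Mt1 and 2.94 for Mt2 (edgeR's adjusted p = 0.131 each) and 1.51 for Slc39a14 (edgeR's adjusted p = 0.248), where 0.0109% of genes and none of the 6 were called.

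The oligodendrocyte class was made up differently in the libraries. Cluster 13 held 927 and 343 of its 1225 and 736 cells in the Ms4a3 cKO libraries and 50 and 202 of 532 and 1503 in the Flox control libraries, where cluster 9 held 448 and 1047. Oligodendrocyte markers in the class summed to 27517 and 45744 CPM in the Ms4a3 cKO libraries and 84521 and 72854 CPM in the Flox control libraries, and the 11 endothelial markers to 151 and 139 CPM in the Ms4a3 cKO libraries and 14.1 and 55.9 CPM in the Flox control libraries. Genes induced by dissociation reached their highest median of any class here, a log2 fold change of 0.71. The part of these in the Mt1 and Mt2 differences was not tested. Without Flox control library 1 the log2 fold changes were 2.32 for Mt1 and 3.35 for Mt2. Leaving out any library in turn gave 2.21 to 2.83 for Mt1 and 3.35 to 4.53 for Mt2. A further cluster of oligodendrocyte-like cells, number 10, held 637 and 1239 cells of the Ms4a3 cKO libraries and 1 and 6 of the Flox control libraries and was left out of this class. A cell state and a property of those libraries cannot be told apart for it.

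Microglia, the most numerous class, had the smallest Mt1 and Mt2 log2 fold changes of the 3 macrophage classes. Mt1 had 204 and 168 CPM in microglia of the Ms4a3 cKO libraries, against 38.9 and 111 CPM in those of the Flox control libraries. Mt2 had 144 and 109 CPM in the Ms4a3 cKO libraries and 11.4 and 48.7 CPM in the Flox control libraries. The groups did not overlap for either gene, although Flox control library 2 came near for Mt1. The log2 fold changes were 1.22 for Mt1 (SE 0.432, edgeR's adjusted p = 0.461) and 2.00 for Mt2 (SE 0.617, edgeR's adjusted p = 0.454), and without Flox control library 1 they were 0.71 and 1.34. Without Flox control library 2 they were 1.99 and 3.21. Of the 6 genes, 4 had both Ms4a3 cKO libraries on top, beside 34.5% of all genes, and DESeq2 called 1 (Mt2) beside 1.88%. Microglial cluster 0, with cells from all 4 libraries, had 160 and 127 CPM of Mt1 in the Ms4a3 cKO libraries and 17.8 and 62.6 in the Flox control libraries.

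Monocyte-macrophages, a descendant of the cells in which Ms4a3-Cre is active, had lower levels than microglia for Mt2 and a larger ratio between genotypes. That the Mt2 ratio differed between the 2 classes was not called (edgeR's adjusted p = 0.111). Mt1 had 183 and 129 CPM in the Ms4a3 cKO libraries and 25.9 and 66.6 CPM in the Flox control libraries. Mt2 had 62.9 and 30.99 CPM in the Ms4a3 cKO libraries, against 1.29 and 5.19 CPM in the Flox control libraries, from 42 and 178 UMIs in the controls. Neither gene's groups overlapped. The log2 fold change was 1.64 for Mt1 (SE 0.374, edgeR's adjusted p = 0.294) and 3.76 for Mt2 (SE 0.649, edgeR's adjusted p = 0.266), and without Flox control library 1 they were 1.24 and 3.19. Leaving out any library in turn gave 1.24 to 2.22 for Mt1 and 3.17 to 4.82 for Mt2. In this class 3 of 5 genes tested had both Ms4a3 cKO libraries on top, beside 31.1% of all genes, and DESeq2 called 3 (Mt1, Mt2 and Slc39a14) beside 3.85%. Cluster 4 held most of these cells in Flox control library 1 (2689 of 3108) and cluster 1 most of them in the other 3 libraries. Within cluster 1 alone the Mt2 log2 fold change was 2.99 (edgeR's adjusted p = 0.0615), where 0.146% of genes were called. Within cluster 11 it was 5.40 and that of Mt1 2.83 (edgeR's adjusted p = 0.0410 for each), where 0.491% of genes were called and Flox control library 1 had 0 Mt2 UMIs.

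Border macrophages had 355 and 350 CPM of Mt1 in the Ms4a3 cKO libraries, against 47.4 and 149 CPM in the Flox control libraries. Their Mt2 level was 375 and 323 CPM in the Ms4a3 cKO libraries and 4.88 and 75.0 CPM in the Flox control libraries. The Ms4a3 cKO libraries were close to each other and the controls were not. The log2 fold changes were 1.82 for Mt1 (SE 0.411, edgeR's adjusted p = 0.131) and 3.04 for Mt2 (SE 0.732, edgeR's adjusted p = 0.152). They were 1.28 and 2.25 without Flox control library 1 and 2.82 and 6.07 without Flox control library 2. Without Ms4a3 cKO library 1 they were 1.82 and 2.96, and without Ms4a3 cKO library 2 they were 1.85 and 3.18. In this class 4 of 5 genes tested had both Ms4a3 cKO libraries on top, beside 22.2% of all genes, and DESeq2 called 1 (Mt1) beside 1.69%. Dendritic cells had 185 and 198 CPM of Mt1 in the Ms4a3 cKO libraries and 21.1 and 70.3 CPM in the Flox control libraries (log2 fold change 2.02, SE 0.467, edgeR's adjusted p = 0.317). They numbered 128 and 92 cells in the Ms4a3 cKO libraries and 1076 and 955 in the Flox control libraries, 3 of their 5 tested genes had both Ms4a3 cKO libraries on top beside 22.1% of all genes, and DESeq2 called Mt1 beside 0.691%. Without Flox control library 1 the Mt1 log2 fold change was 1.44 and without library 2 it was 2.99. Neutrophil markers in dendritic cells summed to 1047 and 784 CPM in the Ms4a3 cKO libraries and 199.7 and 519 CPM in the Flox control libraries, and their part was not tested.

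Neutrophils, the other class of such descent, had few metallothionein UMIs in the controls. Mt1 had 219 and 172 CPM in the Ms4a3 cKO libraries, from 639 and 95 UMIs, against 3.23 and 43.9 CPM in the Flox control libraries, from 1 and 34 UMIs. The single UMI of Flox control library 1 allows 0.0817 to 17.98 CPM by its exact Poisson interval (95%, counting error only). Mt2 had 68.8 and 32.5 CPM in the Ms4a3 cKO libraries and 0 and 5.17 CPM in the Flox control libraries, where 0 UMIs allow up to 9.68 CPM (3 counts). All the values of the Ms4a3 cKO libraries lay above those of the controls. The log2 fold changes were 2.90 for Mt1 (SE 0.667, edgeR's adjusted p = 0.370) and 3.93 for Mt2 (SE 0.839, edgeR's adjusted p = 0.318). Without Flox control library 1 they were 2.33 and 3.53. Leaving out any library in turn gave 2.33 to 5.65 for Mt1 and 3.17 to 9.04 for Mt2. The highest came without Flox control library 2, where only the library with 1 and 0 UMIs was left as control. Of 5 genes tested, 4 had both Ms4a3 cKO libraries on top, beside 17.9% of all genes, and DESeq2 called Mt1 beside 0.73%. Cluster 19 held 818 of the 1270 neutrophils of Ms4a3 cKO library 1 and cluster 15 most of those of the other libraries. In cluster 15 alone Mt1 had 412 and 264 CPM in the Ms4a3 cKO libraries and 4.71 and 39.3 CPM in the Flox control libraries. The neutrophil markers of the class summed to 63929 and 55236 CPM in the Ms4a3 cKO libraries and 84664 and 16557 CPM in the Flox control libraries, and their part in the result was not tested.

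In endothelial cells and fibroblasts, too, both Ms4a3 cKO libraries had more Mt1 and Mt2 than both Flox control libraries. Endothelial cells had 824 and 288 CPM of Mt2 in the Ms4a3 cKO libraries, against 43.5 and 40.4 CPM in the Flox control libraries. The controls agreed closely and the Ms4a3 cKO libraries did not, yet the groups were well apart (log2 fold change 3.72, SE 0.556, edgeR's adjusted p = 0.358). Their Mt1 level was 356 and 140 CPM in the Ms4a3 cKO libraries and 78.0 and 37.4 CPM in the Flox control libraries (log2 fold change 2.18, SE 0.583, edgeR's adjusted p = 0.616). Without Flox control library 1 the log2 fold changes were 3.82 for Mt2 and 2.77 for Mt1, and without Ms4a3 cKO library 1 they were 2.77 and 1.31. Cluster 14 had 1309 and 731 CPM of Mt2 in the Ms4a3 cKO libraries and 30.1 CPM in Flox control library 2, with 4 cells in library 1, and cluster 3 had 399 and 131 CPM in the Ms4a3 cKO libraries and 43.6 and 53.0 CPM in the Flox control libraries. The 9 fibroblast markers in endothelial cells summed to 1303 and 663 CPM in the Ms4a3 cKO libraries and 279 and 475 CPM in the Flox control libraries, highest in Ms4a3 cKO library 1 as Mt2 was, and their part was not tested. Of 5 genes tested, 3 had both Ms4a3 cKO libraries on top, beside 21.7% of all genes, and DESeq2 called Mt1 and Mt2 beside 0.492%. Fibroblasts had 299 and 207 CPM of Mt1 in the Ms4a3 cKO libraries and 13.2 and 31.4 CPM in the Flox control libraries. Their Mt2 level was 515 and 514 CPM in the Ms4a3 cKO libraries, against 20.9 and 75.9 CPM in the Flox control libraries. The fibroblast log2 fold changes were 3.35 for Mt1 (SE 0.443) and 3.28 for Mt2 (SE 0.568), each at an adjusted p from edgeR of 0.196. Without Flox control library 1 they were 2.93 and 2.69 and without library 2 they were 4.07 and 4.44. Fibroblast cluster 28 held 161 and 338 cells of the Flox control libraries and 18 in each Ms4a3 cKO library. Its Mt1 level was 10.9 and 25.02 CPM in the Flox control libraries. In cluster 21 alone Mt1 had 269 and 163 CPM in the Ms4a3 cKO libraries and 12.01 and 68.5 CPM in the Flox control libraries. Mt2 there had 312 and 395 CPM in the Ms4a3 cKO libraries and 18.02 and 62.7 CPM in the Flox control libraries. The part of this make-up in the differences was not tested. In fibroblasts 3 of 5 genes tested had both Ms4a3 cKO libraries on top, beside 28% of all genes, and DESeq2 called Mt1 and Mt2 beside 1.97%.

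The choroid plexus had a small difference in Mt1, with 80.2 and 109 CPM in the Ms4a3 cKO libraries and 26.1 and 72.9 CPM in the Flox control libraries (log2 fold change 0.90, SE 0.428, edgeR's adjusted p = 0.946). It was 0.47 without Flox control library 1 and 1.85 without library 2. Choroid plexus Mt2 had 45.6 and 48.1 CPM in the Ms4a3 cKO libraries, against 13.1 and 18.5 CPM in the Flox control libraries, from 6 and 18 UMIs. Its log2 fold change was 1.55 (SE 0.382, edgeR's adjusted p = 0.540), and 1.41 without Flox control library 1 and 1.82 without library 2. Of the 6 genes in the choroid plexus, 3 had both Ms4a3 cKO libraries on top, beside 16% of all genes, and DESeq2 called none of them and 0.254% of genes. In neurons and neuroblasts Mt2 had 33.3 and 48.9 CPM in the Ms4a3 cKO libraries and 36.1 and 42.2 CPM in the Flox control libraries, so that the groups overlapped (log2 fold change 0.05, SE 0.419, edgeR's adjusted p = 0.9803). Mt1, with too few counts for a test in that class, had 20.5 and 40.3 CPM in the Ms4a3 cKO libraries, from 8 and 28 UMIs. In the Flox control libraries it had 3.80 and 11.7 CPM, from 2 and 5 UMIs. Of 4 genes tested in neurons and neuroblasts, 1 had both Ms4a3 cKO libraries on top, beside 21.8% of all genes. Among the classes with too few cells for a test, ependymal cells had 1472 and 1601 CPM of Mt1 in the Ms4a3 cKO libraries and 428 and 551 CPM in the Flox control libraries. In T or NK cells Mt1 had 57.7 and 37.8 CPM in the Ms4a3 cKO libraries and 2.59 and 45.8 CPM in the Flox control libraries, from 5 to 13 UMIs, and the groups overlapped.

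Slc39a14 was next to the metallothioneins in how widely it differed. In oligodendrocytes it had 201 and 220 CPM in the Ms4a3 cKO libraries, against 44.5 and 54.7 CPM in the Flox control libraries, means of 210 ± 13.1 and 49.6 ± 7.23 CPM (SD, n = 2 each). In astrocytes it had 120 and 129 CPM in the Ms4a3 cKO libraries and 54.4 and 45.6 CPM in the Flox control libraries. Libraries of a genotype were close to each other in both classes and the genotypes were far apart. The log2 fold change was 1.93 in oligodendrocytes (SE 0.207, edgeR's adjusted p = 0.0526) and 1.36 in astrocytes (SE 0.245, edgeR's adjusted p = 0.104), and 1.89 and 1.53 without Flox control library 1. Leaving out any library in turn gave 1.79 to 2.06 in oligodendrocytes and 1.16 to 1.53 in astrocytes. In monocyte-macrophages Slc39a14 had 52.7 and 31.2 CPM in the Ms4a3 cKO libraries and 13.6 and 20.4 CPM in the Flox control libraries (log2 fold change 1.15, SE 0.293, edgeR's adjusted p = 0.305). In microglia it had 114 and 64.7 CPM in the Ms4a3 cKO libraries and 41.3 and 53.3 CPM in the Flox control libraries (log2 fold change 0.78, SE 0.288, edgeR's adjusted p = 0.461). Fibroblasts had the opposite order, 183 and 110 CPM in the Ms4a3 cKO libraries and 292 and 224 CPM in the Flox control libraries (log2 fold change -0.96, SE 0.331, edgeR's adjusted p = 0.375). Fibroblast cluster 28 held 161 and 338 cells of the Flox control libraries and 18 in each Ms4a3 cKO library. In fibroblast cluster 21 alone Slc39a14 had 66.2 and 69.0 CPM in the Ms4a3 cKO libraries and 120 and 121 CPM in the Flox control libraries.

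For Slc30a1 the groups overlapped in 7 of the 11 classes, microglia and endothelial cells among them. Both Ms4a3 cKO libraries lay above both Flox control libraries in 3 classes and below them in 1. In microglia it had 38.8 and 37.5 CPM in the Ms4a3 cKO libraries and 38.4 and 36.7 CPM in the Flox control libraries, from 1168 to 1599 UMIs per library. In endothelial cells it had 712 and 723 CPM in the Ms4a3 cKO libraries, against 791 and 656 CPM in the Flox control libraries. The groups overlapped in both. The log2 fold change was -0.13 in microglia (SE 0.161, edgeR's adjusted p = 0.750) and -0.05 in endothelial cells (SE 0.237, edgeR's adjusted p = 0.996). In monocyte-macrophages both Ms4a3 cKO libraries, at 44.2 and 39.8 CPM, were below the Flox control libraries, at 56.3 and 51.9 CPM (log2 fold change -0.57, SE 0.217, edgeR's adjusted p = 0.380). In oligodendrocytes both were above, at 64.4 and 77.3 CPM, against 51.3 and 58.8 CPM in the Flox control libraries (log2 fold change 0.21, SE 0.223, edgeR's adjusted p = 0.630). The median log2 fold change over the classes tested was -0.05 for Slc30a1, 1.92 for Mt1, 3.07 for Mt2 and 0.78 for Slc39a14.

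Mtf1 itself differed little, with a median log2 fold change of 0.07 over 11 classes. In oligodendrocytes, where it was highest, it had 81.5 and 77.0 CPM in the Ms4a3 cKO libraries and 71.7 and 79.7 CPM in the Flox control libraries. Its largest difference was in endothelial cells, with 55.1 and 38.1 CPM in the Ms4a3 cKO libraries and 21.8 and 30.0 CPM in the Flox control libraries (log2 fold change 0.77, SE 0.306, edgeR's adjusted p = 0.733). In astrocytes it was lower in both Ms4a3 cKO libraries, with 23.8 and 16.7 CPM, than in the Flox control libraries, with 32.3 and 26.1 CPM (log2 fold change -0.50, SE 0.369, edgeR's adjusted p = 0.538).

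In astrocytes and choroid plexus the Mt3 levels of the genotypes overlapped. Astrocytes had 159 and 160 CPM in the Ms4a3 cKO libraries and 64.7 and 186 CPM in the Flox control libraries (log2 fold change 0.33, SE 0.395, edgeR's adjusted p = 0.727). Choroid plexus had 67.3 and 59.3 CPM in the Ms4a3 cKO libraries and 58.7 and 85.2 CPM in the Flox control libraries. Flox control library 1 was the lowest in both classes and library 2 the highest. In ependymal cells, which were too few for a test, both Ms4a3 cKO libraries were on top, with 263 and 205 CPM from 33 and 21 UMIs, against 187 and 192 CPM in the Flox control libraries from 49 and 22 UMIs. Oligodendrocyte precursors, also untested, had 93.8 and 51.1 CPM in the Ms4a3 cKO libraries from 14 and 28 UMIs, against 4.09 and 47.4 CPM in the Flox control libraries from 4 and 78 UMIs. In oligodendrocytes Mt3 had 10.2 and 10.1 CPM in the Ms4a3 cKO libraries, from 50 and 39 UMIs, against 0.486 and 1.40 CPM in the Flox control libraries, from 2 and 13 UMIs. The 2 UMIs of Flox control library 1 allow 0.0588 to 1.75 CPM by the exact Poisson interval (95%). The groups were apart (log2 fold change 3.13, SE 0.555, edgeR's adjusted p = 0.0763). Astrocyte markers in the oligodendrocyte class summed to 291 and 290 CPM in the Ms4a3 cKO libraries and 108 and 212 CPM in the Flox control libraries, with none of the 11 at 0 in all. Per 1000 astrocyte-marker UMIs, oligodendrocytes had 34.9 and 34.8 Mt3 UMIs in the Ms4a3 cKO libraries and 4.48 and 6.61 in the Flox control libraries, while astrocytes had 4.62 and 4.34 in the Ms4a3 cKO libraries and 2.19 and 7.87 in the Flox control libraries. By cluster, number 13 had 14.9 and 21.7 CPM of Mt3 in the Ms4a3 cKO libraries and 0 and 0.994 CPM in the Flox control libraries. The 0 of Flox control library 1 rests on only 50 cells. Cluster 9 had 0 and 2.56 CPM in the Ms4a3 cKO libraries and 0.517 and 1.25 CPM in the Flox control libraries, where the order was mixed, and cluster 29 had 16.6 and 18.8 CPM in the Ms4a3 cKO libraries and 8.41 CPM in Flox control library 2.

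**Figure D3:**
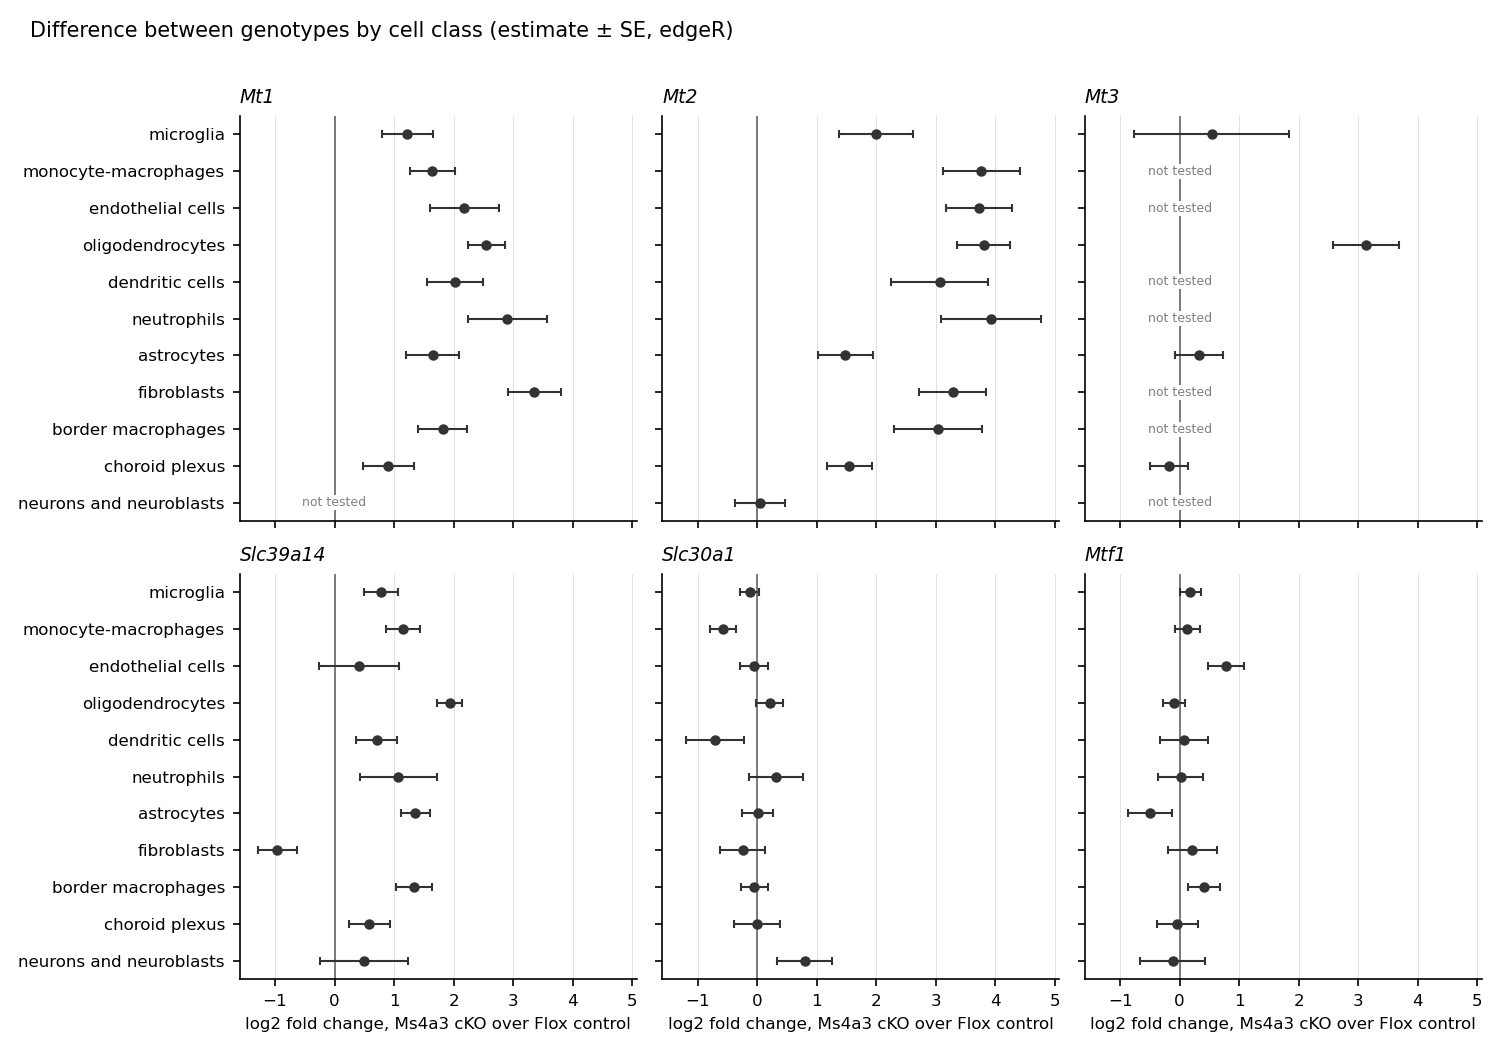
Log2 fold change of each gene, Ms4a3 cKO over Flox control, by cell class, with bars of ± 1 SE from edgeR. Mt1 and Mt2 lie right of 0 in every class tested (10 and 11 classes), Slc39a14 in 10 of 11, and Slc30a1 and Mtf1 lie around 0.

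The size of the difference was then compared between cell types, as the difference in a class minus that in microglia, with the library as a block. Mt1 in neutrophils was the only 1 of the 6 genes called in any of the 4 comparisons. Its log2 fold change between genotypes was larger in neutrophils than in microglia by 1.96 (SE 0.501, edgeR's adjusted p = 0.0164), where 0.884% of genes were called. Over 6 alternatives its adjusted p ranged from 0.0139 to 1. It was lost without Flox control library 1 (adjusted p = 0.0502), Ms4a3 cKO library 1 (adjusted p = 1) or Ms4a3 cKO library 2 (adjusted p = 0.158). In monocyte-macrophages the Mt2 difference exceeded that in microglia by 1.71 (SE 0.243, edgeR's adjusted p = 0.111), in a comparison where edgeR called 0% of genes and 1775 genes had an unadjusted p under 0.05. In endothelial cells Mt2 gave 1.61 more than in microglia (SE 0.5996, edgeR's adjusted p = 0.701), where 0.0206% of genes were called. In astrocytes Slc39a14 gave 0.76 more (SE 0.355, edgeR's adjusted p = 0.634), where 0.131% were called.

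The share of cells with at least 1 UMI was compared after each cell was thinned to 1000 UMIs, with shallower cells left out, since depth differed between libraries. Mt1 was found in 59.9% and 51.2% of astrocytes of the Ms4a3 cKO libraries, against 20.6% and 40.8% in the Flox control libraries. Without thinning the shares were 75.2% and 71.3% in the Ms4a3 cKO libraries and 38.9% and 55.4% in the Flox control libraries. Both scales put the Ms4a3 cKO libraries on top. In oligodendrocytes the thinned shares were 26.4% and 42.8% in the Ms4a3 cKO libraries and 5.33% and 10.4% in the Flox control libraries. In microglia they were 15.4% and 12.998% in the Ms4a3 cKO libraries and 2.86% and 7.48% in the Flox control libraries. Neurons, which had the lowest mean level, had 3.79% and 4.21% in the Ms4a3 cKO libraries and 0% and 1.68% in the Flox control libraries. T or NK cells had 0% and 3.85% in the Ms4a3 cKO libraries and 0.173% and 2.59% in the Flox control libraries. Ms4a3 cKO library 1 held only 48 T or NK cells before thinning. Median depths were 1866.5 and 1914 UMIs in astrocytes of the Ms4a3 cKO libraries and 2606 and 1648 in those of the Flox control libraries, and in T or NK cells 2023.5 and 1860 in the Ms4a3 cKO libraries and 2570 and 1809 in the Flox control libraries. Slc30a1 was found in 51.5% and 51.8% of thinned endothelial cells of the Ms4a3 cKO libraries and 55.5% and 47.7% of those of the Flox control libraries, and in 1.77% to 3.55% of neutrophils.

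Some astrocytes had both Mt1 and Mt2. Of thinned astrocytes, 40.8% and 31.7% had a UMI of both in the Ms4a3 cKO libraries, against 6.88% and 24.7% in the Flox control libraries. Mt2 was found in 68.1% and 61.9% of astrocytes with Mt1 in the Ms4a3 cKO libraries and in 33.3% and 60.6% of those in the Flox control libraries. Among astrocytes without a Mt1 UMI it was found in 41.0% and 33.2% in the Ms4a3 cKO libraries and in 24.4% and 27.6% in the Flox control libraries. In all 4 libraries, cells with Mt1 had Mt2 more often than cells without, though Flox control library 1 had only 33 astrocytes with Mt1. The class joins clusters of unlike level. In the Ms4a3 cKO libraries Mt2 had 2900 and 1884 CPM in cluster 16 and 798 and 726 CPM in cluster 23. The part of this mixture was not tested. The ratio of Mt2 to Mt1 UMIs was near 1 in astrocytes and slightly lower in both Ms4a3 cKO libraries, at 1.15 and 0.959 in the Ms4a3 cKO libraries and 1.19 and 1.20 in the Flox control libraries. It was higher in both Ms4a3 cKO libraries in microglia, with 0.707 and 0.648 in the Ms4a3 cKO libraries and 0.292 and 0.440 in the Flox control libraries. In monocyte-macrophages the ratio was 0.344 and 0.241 in the Ms4a3 cKO libraries, against 0.0497 and 0.0780 in the Flox control libraries. In oligodendrocytes it was 0.944 and 0.912 in the Ms4a3 cKO libraries and 0.284 and 0.453 in the Flox control libraries. Fibroblasts had overlapping ratios, 1.72 and 2.48 in the Ms4a3 cKO libraries and 1.59 and 2.42 in the Flox control libraries. No test was made of these ratios.

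The cell types that supplied each transcript differed between libraries with their cell numbers. Over all cells Mt1 had 269 and 235 CPM in the Ms4a3 cKO libraries, against 36.4 and 101 CPM in the Flox control libraries, and microglia held 30.9% and 38.2% of its UMIs in the Ms4a3 cKO libraries and 41.3% and 35.6% in the Flox control libraries. Slc30a1 over all cells had 95.9 and 91.7 CPM in the Ms4a3 cKO libraries and 49.2 and 64.7 CPM in the Flox control libraries, so the genotypes were apart over all cells and overlapped within endothelial cells and within microglia. Endothelial cells, 1741 and 1818 in number in the Ms4a3 cKO libraries and 145 and 882 in the Flox control libraries, held 53.6% and 52.6% of Slc30a1 UMIs in the Ms4a3 cKO libraries and 8.72% and 29.7% in the Flox control libraries. Fibroblasts held 1.60% and 1.28% of Slc39a14 UMIs in the Ms4a3 cKO libraries and 19.1% and 26.9% in the Flox control libraries. Astrocytes held 46.5% and 53.1% of Mt3 UMIs in the Ms4a3 cKO libraries and 34.1% and 64.5% in the Flox control libraries.

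**Figure D4:**
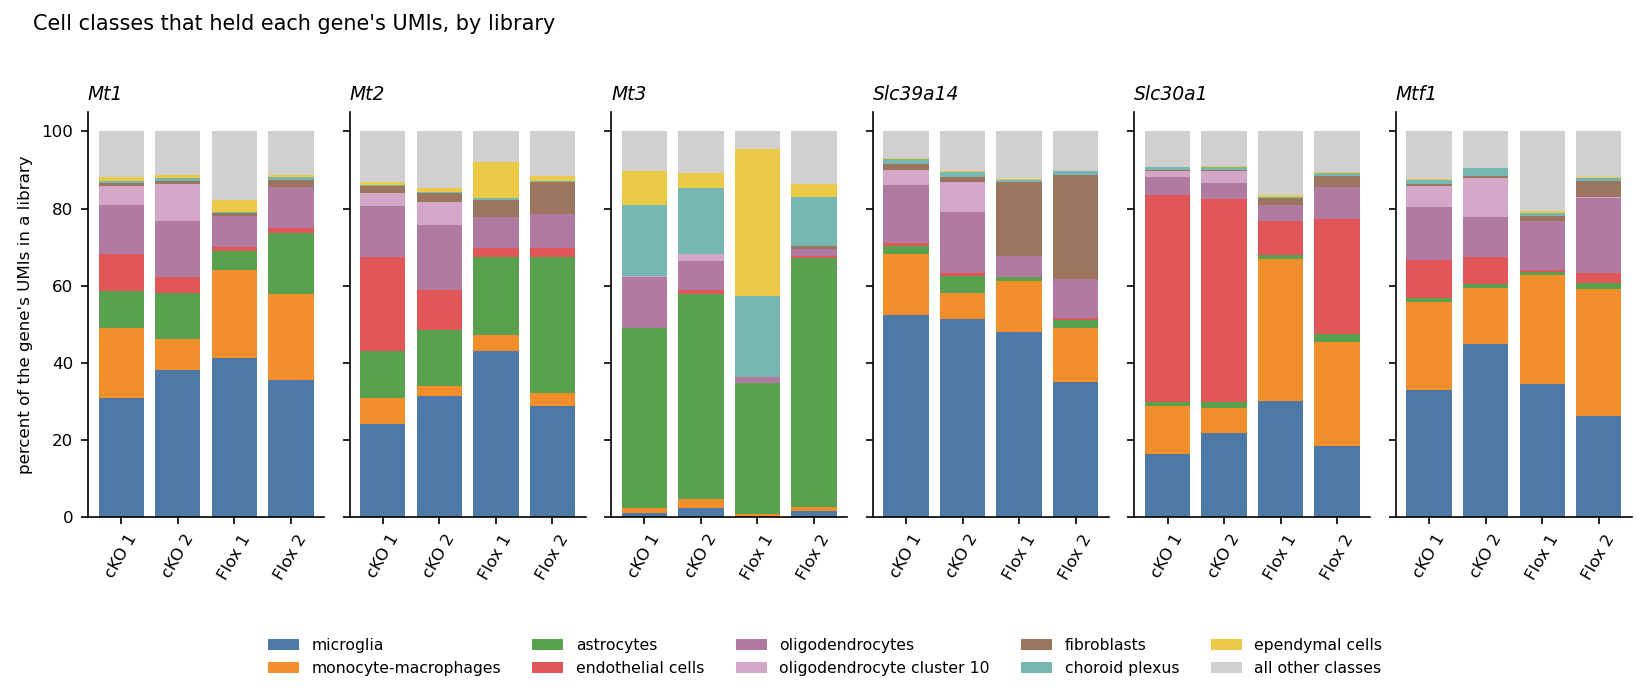
Percent of each gene's UMIs in a library that came from each cell class, as stacked bars for the 2 Ms4a3 cKO and the 2 Flox control libraries. Endothelial cells hold 53.6% and 52.6% of Slc30a1 UMIs in the Ms4a3 cKO libraries and 8.72% and 29.7% in the Flox control libraries, while microglia hold a large share of Mt1 in all 4.

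The genes most like each of the 6 were listed by Pearson's r of log2(CPM + 1) over 44 sums (11 classes in 4 libraries, which share libraries and are not independent), among 7243 genes, as a description. Mt1 was nearest to Mt2 (r = 0.80), then Znrf3 (0.73) and Ide (0.72). Mt2 was nearest to Mt1 (0.80), Gphn (0.76) and Znrf3 (0.75). Mt3 was nearest to Wwc1 (0.92), Kcnk1 (0.91) and Clu (0.88), the last of which encodes the secreted chaperone clusterin. Slc30a1 was nearest to Sox18 (0.90), a transcription factor of endothelial cells, Mrtfb (0.89) and Mmrn2 (0.88), a matrix protein of vessels. Slc39a14 was nearest to Selenos (0.77), Pgm3 (0.75) and Sec24a (0.74), and Mtf1 to Il1rap (0.81), Klhl2 (0.75) and Arpc1a (0.73). Among the 6, Slc30a1 and Slc39a14 had r = -0.40, Mt1 and Slc39a14 0.45, Mt1 and Mt3 0.39, Mt1 and Slc30a1 0.24 and Mt1 and Mtf1 0.13.

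The other zinc transporters had medians near those of all genes. The list held 22 further transporters of the Slc30a and Slc39a families and Mt4, and 0 of its genes were called by edgeR in any of the 11 classes. DESeq2 called 1, in oligodendrocytes, where it called 6.04% of all genes. Its median log2 fold change lay between -0.29 (fibroblasts) and 0.11 (dendritic cells), beside all-gene medians of -0.02 to 0.00. The highest mean level belonged to Slc39a10, an importer, which averaged 977 ± 437 CPM in endothelial cells (SD, n = 4 libraries), with 619 and 848 CPM in the Ms4a3 cKO libraries and 1614 and 829 CPM in the Flox control libraries. Slc30a5, which loads zinc into the early secretory pathway, was highest in dendritic cells at 97.5 CPM, and Slc30a7, which does so too, in fibroblasts at 83.6 CPM. Slc39a1 was highest in fibroblasts at 121 CPM. Slc39a12 was highest in astrocytes, with 423 and 615 CPM in the Ms4a3 cKO libraries and 656 and 199 CPM in the Flox control libraries.

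By smallest p in each direction, Slc39a12 had a log2 fold change of 0.89 in microglia (edgeR's adjusted p = 0.454), 1.31 in monocyte-macrophages (edgeR's adjusted p = 0.540) and 2.76 in endothelial cells (edgeR's adjusted p = 0.690). Astrocyte markers in endothelial cells summed to 272 and 205 CPM in the Ms4a3 cKO libraries and 112 and 177 CPM in the Flox control libraries, where Slc39a12 had 20 and 22 UMIs in the Ms4a3 cKO libraries and 0 and 2 in the Flox control libraries, and their part in it was not tested. Slc30a7 had 0.34 in microglia, 0.17 in monocyte-macrophages and 0.04 in neutrophils, and Slc39a3 0.91 in endothelial cells. On the lower side, Slc39a10 had log2 fold changes of -0.54 in microglia, -0.96 in monocyte-macrophages (edgeR's adjusted p = 0.314) and -0.79 in endothelial cells. Slc39a13 had -0.48 in microglia and -0.78 in monocyte-macrophages, Slc39a8 -0.46 in endothelial cells and 0.52 in astrocytes, and Slc39a6 -1.17 in neutrophils and -0.56 in astrocytes. Slc39a11 had -1.05 in neutrophils. In astrocytes Slc30a4 had 0.42 and Slc30a10, a manganese exporter, -1.35 (edgeR's adjusted p = 0.307). The list's transporters Slc30a2, Slc30a3, Slc30a8 and Slc39a5 passed the filter on low counts in no class.

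Of the pathways known to act on Mt1 and Mt2, the list of 12 glucocorticoid-responsive genes had medians above those of all genes in all 11 classes, between 0.23 in neutrophils and 1.32 in oligodendrocytes. In astrocytes all 12 had a positive log2 fold change, in monocyte-macrophages 11 of 12, in microglia 8 of 12 and in neutrophils 5 of 10 tested. Fkbp5, whose product binds the glucocorticoid receptor with its chaperones, had 418 and 365 CPM in astrocytes of the Ms4a3 cKO libraries, against 45.6 and 81.5 CPM in those of the Flox control libraries. It was called in astrocytes (log2 fold change 2.60, edgeR's adjusted p = 0.0419), as was the sulfotransferase gene Sult1a1 (2.71, edgeR's adjusted p = 0.0410). In border macrophages Ddit4 (4.06, edgeR's adjusted p = 0.00794), Zbtb16 (3.03, edgeR's adjusted p = 0.0189) and Fkbp5 (1.72, edgeR's adjusted p = 0.0189) were called, and Fkbp5 had 899 and 1000 CPM in the Ms4a3 cKO libraries and 285 in each Flox control library. Those 5 were the only calls of the list by edgeR, all higher. DESeq2 called most in oligodendrocytes, 8 higher and 1 lower, where it called 6.04% of all genes.

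In the remaining classes edgeR called 0 genes of the glucocorticoid list, and the smallest p-values belonged to Ddit4 in microglia (log2 fold change 2.70, edgeR's adjusted p = 0.168), with 62.7 and 73.1 CPM in the Ms4a3 cKO libraries and 10.0 and 8.81 CPM in the Flox control libraries, and to Fkbp5 (1.57, edgeR's adjusted p = 0.187). In monocyte-macrophages they belonged to Sult1a1 (3.35) and Fkbp5 (2.53, edgeR's adjusted p = 0.266 each), in neutrophils to Klf9 (3.09, edgeR's adjusted p = 0.175) and Fkbp5 (1.70) and in endothelial cells to Fkbp5 (2.36, edgeR's adjusted p = 0.241) and Sult1a1 (2.07). On the lower side were Sgk1 in microglia (-0.60) and monocyte-macrophages (-0.68), Pdk4 in microglia (-0.77), Cebpd (-0.86) and Dusp1 (-0.71) in neutrophils, and Tsc22d3 (-0.76) and Ddit4 (-0.14) in endothelial cells.

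The list of 12 Stat3 targets had medians from 0.19 in fibroblasts to 1.57 in oligodendrocytes. All of its genes tested had a positive log2 fold change in astrocytes (9), microglia (10), monocyte-macrophages (11) and oligodendrocytes (9). In neutrophils 6 of 9 tested did, and in fibroblasts 8 of 10. No gene of the list was called by edgeR in any class, while DESeq2 called at most 6 in a class. Those 6, all higher, were in monocyte-macrophages, where DESeq2 called 3.85% of all genes. Lcn2, which encodes the siderophore-binding lipocalin of neutrophils and reactive astrocytes, had 68.8 and 29.9 CPM in astrocytes of the Ms4a3 cKO libraries and 0 and 15.1 CPM in those of the Flox control libraries. In endothelial cells it had 793 and 201 CPM in the Ms4a3 cKO libraries and 25.4 and 11.7 CPM in the Flox control libraries, and in monocyte-macrophages 72.7 and 4.53 CPM in the Ms4a3 cKO libraries and 0.0307 and 0.350 CPM in the Flox control libraries. Its log2 fold changes were 7.48 in monocyte-macrophages (edgeR's adjusted p = 0.291), 4.96 in endothelial cells, 4.68 in microglia, 2.28 in astrocytes and 1.91 in neutrophils. Lcn2 is also a neutrophil gene, and neutrophil markers summed to 1504 and 331 CPM in monocyte-macrophages of the Ms4a3 cKO libraries, against 339 and 285 CPM in those of the Flox control libraries. In endothelial cells they summed to 216 and 35.5 CPM in the Ms4a3 cKO libraries and 12.7 and 49.4 CPM in the Flox control libraries. Ms4a3 cKO library 1, which had the highest Lcn2 level in both classes, held 1270 neutrophils, against 290 in Ms4a3 cKO library 2 and 159 and 511 in the Flox control libraries, and their part was not tested. Cebpb had 0.73 in microglia and 1.48 in monocyte-macrophages, Pim1 0.99 in astrocytes and -0.41 in neutrophils, and Osmr 1.00 and Timp1 -0.26 in endothelial cells. In neutrophils Hp had 1.84 and Socs3 -0.68.

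Lists of copper-handling genes, oxidative-stress genes, hypoxia genes and genes induced by dissociation had 0 calls by edgeR in any class. Their medians lay between -0.23 and 0.27 for copper, -0.22 and 0.33 for oxidative stress, -0.45 and 0.43 for hypoxia and -0.56 and 0.71 for dissociation. DESeq2 called at most 5 genes of the dissociation list in a class, in oligodendrocytes and all higher, where it called 6.04% of all genes. Of any other of these lists it called at most 2 in a class.

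**Figure D5:**
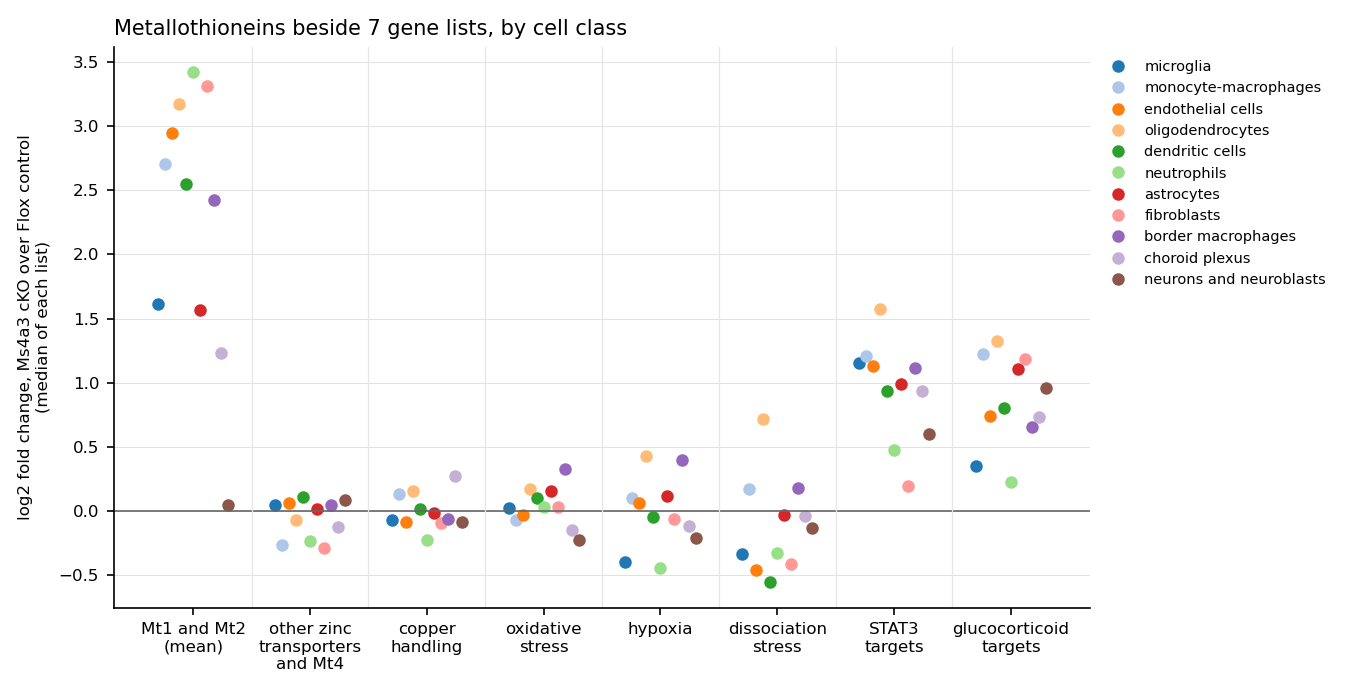
Mean log2 fold change of Mt1 and Mt2, and median log2 fold change of 7 gene lists, Ms4a3 cKO over Flox control, with a point for each cell class. In neurons and neuroblasts, where Mt1 was not tested, the first point is Mt2 alone. The glucocorticoid list lies above 0 in all 11 classes (0.23 to 1.32), as the Stat3 list does (0.19 to 1.57), and the zinc transporters lie around 0 (-0.29 to 0.11).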

How the data were processed

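The authors deposited, for each of the 4 libraries, a matrix of raw counts of UMIs, genes by cell barcodes, in which the lowest total was 500 UMIs. Per the submitters' processing notes fastp 0.24.0 and STARsolo were used with build mm10, while STARsolo's version, the gene models and the strand setting stand in none of the sources used here. Kept were barcodes of 500 UMIs or more and 250 genes or more whose mitochondrial share was under 20% (60942 of 63181), and 1317 doublets predicted by Scrublet, at a set rate of 6%, were removed. No file with cell names was used, so cells were clustered with scanpy 1.11.5 and leidenalg 0.10.2 (counts scaled to 10000, 2000 variable genes, 30 components, 15 neighbours, Leiden resolution 1), with the 6 genes and the zinc list left out of the variable genes. Clusters were named from fixed marker lists, and a class may differ from the study's own.

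Deposited counts were summed per class and library and tested with edgeR 4.0.16 in R 4.3.3 (filterByExpr, TMM, quasi-likelihood), Ms4a3 cKO over Flox control, over all genes at an adjusted p under 0.05, with DESeq2 1.42.0 as an alternative. Differences between classes were fitted with the library as a block. A self-test on simulated counts was run at the same size, and its outcome is not reported here. Total counts were 77580518 and 84397197 UMIs in the Ms4a3 cKO libraries and 105566650 and 105545311 in the Flox control libraries, and intervals (exact Poisson, 95%) cover counting error only. Shares were taken from cells thinned to 1000 UMIs. The genes and lists were chosen with earlier results of these data known. By the rule for named genes, the 6 genes were described in each class, together with the members of each list that passed over all genes, or else the 2 with the smallest p in each direction, in microglia, monocyte-macrophages, neutrophils, endothelial cells and astrocytes, the 5 zinc transporters of highest mean and the 3 genes most alike. Of the copper, oxidative-stress, hypoxia and dissociation lists only counts and medians are given, and the border macrophage genes of the glucocorticoid list were named after their values were seen. Alternatives were other scaling, DESeq2, no filter, stricter cell filters, doublets kept, other resolutions, the 6 genes kept for clustering, a replicate block, each library left out and, chosen after seeing the data, the crossed block and single clusters. Equal replicate numbers did not pair the libraries: correlations of their deviations ran from -0.28 to 0.23.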

Additional observations from a re-analysis of the deposited data

Results flagged for a closer look

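The Mt1 difference between genotypes was larger in neutrophils than in microglia by a log2 fold change of 1.96 (edgeR adjusted p = 0.0164), which a test of the difference itself picked out. Mt1 was higher in both Ms4a3 cKO libraries than in both Flox control libraries in each of the 2 classes. The neutrophil value of Flox control library 1 rests on 1 UMI, and leaving out a library gave 1.63 to 3.65, with the call kept in 1 of the 4 such fits.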

How the results depend on the processing

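With 2 libraries per genotype, the number of genes called is the least stable result here. Over the 11 classes edgeR called 0 of 58 pairs of gene and class for the 6 genes, and also 0 with DESeq2 size factors (58 pairs), Leiden resolution 0.5 (58), doublets kept (59), the genes kept for clustering (58) or under 10% mitochondrial UMIs (52). It called 3 of 53 at Leiden resolution 2 and 3 of 58 with at least 1000 UMIs per cell, in each case the 3 in oligodendrocytes. DESeq2 called 18, with 3 in astrocytes, 1 in border macrophages, 1 in dendritic cells, 2 in endothelial cells, 2 in fibroblasts, 1 in microglia, 3 in monocyte-macrophages, 1 in neutrophils and 4 in oligodendrocytes. Its share of all genes called ran from 0% in neurons and neuroblasts to 6.04% in oligodendrocytes. With no filter on low counts there were 19 of 66, with 3 in astrocytes, 3 in border macrophages, 2 in dendritic cells, 2 in fibroblasts, 3 in monocyte-macrophages, 2 in neutrophils and 4 in oligodendrocytes, and 1 each for endothelial cells minus microglia and monocyte-macrophages minus microglia, and 1 in place of 2 for neutrophils over monocyte-macrophages. Monocyte-macrophage cluster 11 alone gave 2 and oligodendrocyte cluster 9 alone 3. The cause was not tested.

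Equal replicate numbers did not pair the libraries. The replicate block gave 4 calls of 58, 2 in endothelial cells and 2 in monocyte-macrophages. The crossed replicate block, chosen after seeing the data, gave 14: 3 in astrocytes, 3 in border macrophages, 2 in dendritic cells, 2 in monocyte-macrophages and 4 in oligodendrocytes.

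Leaving out a library in turn gave 13 of 60 calls without Flox control library 1, 26 of 60 without Flox control library 2, 2 of 60 without Ms4a3 cKO library 1 and 4 of 57 without Ms4a3 cKO library 2. Per class the calls ran from 0 to 4 in astrocytes, 2 to 3 in border macrophages, 0 to 2 in choroid plexus, 0 to 3 in dendritic cells, 0 to 3 in fibroblasts, 0 to 2 in microglia, 0 to 4 in monocyte-macrophages, 0 to 1 in neutrophils and 0 to 4 in oligodendrocytes. They ran from 0 to 2 for endothelial cells minus microglia, 0 to 1 for neutrophils minus microglia (1 with all libraries), 0 to 1 for border macrophages over microglia (1), 2 to 4 for choroid plexus over astrocytes (4), 1 to 2 for monocyte-macrophages over microglia (2) and 1 to 2 for neutrophils over monocyte-macrophages (2). These fits assume that the lone library of a group varies like the other group, and that border macrophages had calls in each of them and none with all libraries has a cause that was not tested. Over all genes and the 11 classes the calls numbered 61, and 2116 by DESeq2, 5060 with no filter, 216 with the replicate block, 1510 with the crossed block, 138 and 163 at Leiden resolutions 0.5 and 2, 100 with at least 1000 UMIs, 127 with the genes kept for clustering, 2996 and 16322 without Flox control library 1 and 2, and 191 and 316 without Ms4a3 cKO library 1 and 2.

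Of 1326 log2 fold changes recomputed, 1123 kept direction and side of the threshold, 109 were newly called, 20 lost their call and 74 uncalled ones reversed. Mt1 and Mt2 kept their direction between genotypes in every class and alternative run, except Mt2 in neurons (-0.053 with the genes kept for clustering, and -0.28 to 0.28 leaving out a library). Slc30a1 reversed in astrocytes (-0.21 at Leiden resolution 2, -0.013 with at least 1000 UMIs, -0.14 and -0.16 in clusters 16 and 23 alone, -0.22 with the genes kept for clustering), border macrophages (0.081 under 10% mitochondrial UMIs), choroid plexus (0.025 by DESeq2, 0.010 at Leiden resolution 2, 0.00040 with at least 1000 UMIs, 0.017 with the genes kept, 0.013 with no filter, 0.058 with the replicate block), microglia (0.086 and 0.20 in clusters 0 and 12 alone), oligodendrocytes (-0.0073 at Leiden resolution 0.5) and astrocytes over oligodendrocytes (-0.028 with no filter). Mtf1 reversed in astrocytes (0.20 under 10% mitochondrial UMIs), choroid plexus (0.031 with doublets kept), dendritic cells (-0.00025 with no filter, -0.0032 under 10% mitochondrial UMIs), neutrophils (-0.0056 by DESeq2, -0.024 with the replicate block), oligodendrocytes (0.16 and 0.00029 in clusters 13 and 9 alone) and border macrophages over microglia (-0.11 with no filter). Mt3 was -0.28 in astrocyte cluster 23, Slc39a14 -0.0095 for astrocytes over microglia with no filter, and Mt1 0.034 for endothelial cells over microglia with DESeq2 size factors.

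Leaving out a library reversed these, with the lowest and highest values. For Mt1 they were -0.66 and 1.93 for endothelial cells minus microglia and -0.57 and 0.31 for endothelial cells over microglia, and for Mt2 -0.077 and 0.62 for neutrophils over monocyte-macrophages. For Mt3 they were -0.15 and 1.26 in astrocytes, -0.36 and 0.084 in choroid plexus, -0.44 and 6.02 in microglia, -3.71 and 0.53 for astrocytes, -5.77 and 1.07 for endothelial cells and -7.30 and 2.19 for neutrophils, each minus microglia. For Mtf1 they were -0.15 and 0.050 in choroid plexus, -0.42 and 0.36 in dendritic cells, -0.039 and 0.56 in fibroblasts, -0.070 and 0.37 in monocyte-macrophages, -0.70 and 0.40 in neurons, -0.18 and 0.19 in neutrophils, -0.10 and 0.031 for monocyte-macrophages and -0.53 and 0.19 for neutrophils minus microglia, and -0.052 and 0.15 for border macrophages and -0.025 and 0.31 for endothelial cells over microglia. For Slc30a1 they were -0.25 and 0.27 in astrocytes, -0.18 and 0.13 in border macrophages, -0.37 and 0.70 in choroid plexus, -0.24 and 0.17 in endothelial cells, -0.50 and 0.051 in fibroblasts, -0.28 and 0.018 in microglia, -0.0082 and 0.40 in oligodendrocytes and -0.064 and 0.18 for endothelial cells minus microglia. For Slc39a14 they were -0.22 and 1.78 in neurons, -0.66 and 9.56 for endothelial cells and -0.10 and 2.22 for neutrophils minus microglia, and -0.17 and 0.24 for astrocytes over microglia. Leiden resolution 2 gave no value for dendritic cells and the limit of 10% mitochondrial UMIs none for choroid plexus.

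Depth limits the neutrophils, where the controls had 1 and 34 Mt1 UMIs, and Mt3 outside astrocytes, ependymal cells and choroid plexus.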
